A study of Mus musculus with 16 samples.

Results

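A set of 3 genes whose array signal differed between odor-exposed and clean-air mice is described here, Pcdh10, Camk2n1 and Pik3ip1, 3 of the 19505 genes measured with a single gene symbol. They were chosen by name with the difference between odor and vehicle in these same libraries in view, so every value of odor against vehicle given for them below is a description and carries no test. The odor groups came from S100a5-tauGFP mice exposed to isoamyl acetate with whiskey lactone, and the vehicle groups from S100a5-tauGFP mice that received filtered air instead. All groups shared the C57BL/6 strain, both sexes, an age of 7 to 12 weeks, a stay of 40 h in individual chambers under an air flow of 3.1 L/min, and pulses of 10 s every 20 min from 26 h on. Olfactory mucosa of 3 mice was pooled and sorted by the fluorescence of the S100a5-linked reporter, which gave 8 pools of the 24 mice, 4 per treatment, and 16 libraries in 4 groups of 4: odor titled GFP+, vehicle titled GFP+, odor titled GFP- and vehicle titled GFP-.

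Pcdh10, Camk2n1 and Pik3ip1 belong to different cell biology. Pcdh10 is a delta protocadherin, a cell surface adhesion protein; in mouse olfactory neurons delta protocadherins take part in the sorting of axons, and Pcdh10 is known there as a gene whose level depends on neuronal activity. Camk2n1 is a small protein that binds and inhibits calcium/calmodulin-dependent kinase II (CaMKII), a kinase that responds to the calcium that enters a neuron when it fires. Pik3ip1 is a transmembrane protein that binds the catalytic subunit of phosphoinositide 3-kinase (PI3 kinase) and restrains the growth and survival signalling that runs through it. S100a5, on which the reporter was built, is a calcium-binding protein of olfactory neurons that is raised by activity.

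Each gene was measured by 1 probe set, TC0300000334.mm.2 for Pcdh10, TC0400001728.mm.2 for Camk2n1 and TC1100000009.mm.2 for Pik3ip1. The RefSeq promoter table of build GRCm38.p6 lists a start for Pcdh10 and for Pik3ip1. The 250 bases before each start are shown because the factors that act on activity-dependent genes are known by the short promoter motifs they bind; capitals mark TGACG, the short form of the cAMP response element.
Pcdh10, chr3:45378148-45378397, plus strand: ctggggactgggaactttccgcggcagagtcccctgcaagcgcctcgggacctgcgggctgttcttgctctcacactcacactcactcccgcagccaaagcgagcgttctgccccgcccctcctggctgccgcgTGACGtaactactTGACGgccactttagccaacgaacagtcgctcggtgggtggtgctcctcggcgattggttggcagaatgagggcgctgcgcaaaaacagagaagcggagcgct
Pik3ip1, chr11:3330481-3330730, plus strand: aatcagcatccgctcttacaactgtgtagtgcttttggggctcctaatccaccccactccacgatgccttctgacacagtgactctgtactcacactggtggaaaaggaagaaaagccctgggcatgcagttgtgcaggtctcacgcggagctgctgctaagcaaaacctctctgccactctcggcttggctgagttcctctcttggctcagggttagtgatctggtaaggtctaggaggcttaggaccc
The Pcdh10 window held TGACG 2 times, at 112 and 99 bases before the start and on the plus strand both times. TGACG on either strand was found in 17.8% of the 32851 promoter windows of the same length. The Pik3ip1 window held none. The other 8 motifs were searched on both strands, the full cAMP response element TGACGTCA (1.55% of windows), the AP-1 site TGANTCA (6.75%), the clock E-box CACGTG (6.02%), the FoxO site GTAAACA (3.17%), the EBF site (0.779%), the Egr site GCGNGGGCG (4.70%), the MEF2 site (2.92%) and the serum response element (1.47%); TGACG lies within TGACGTCA, and none of the 8 was in either window. The Pcdh10 window was 63.2% G or C with 22 CpG pairs, the Pik3ip1 window 53.6% with 5, and the median window 52.4%.

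Title and cell type tag contradict each other on the fraction in all 16 samples, so fractions are called by their titles, and S100a5 itself was lower in the titled GFP+ libraries of 7 of the 8 pools. Vehicle pool 3 ran the other way: its S100a5 level was 16.37 in titled GFP+ and 14.99 in titled GFP-, against 14.59 to 15.47 and 16.27 to 16.44 in the other 3 vehicle pools. Results are therefore given for all 16 libraries as labelled and for the 14 libraries without that pool, and the mean of the 2 fractions of a pool is used where the titled fraction should not matter. Values are on the deposited log2 scale, whose upper end of 19.4 lies above the 16 bits of a scanner, so differences are not turned into folds. Omp, the defining protein of mature olfactory neurons, lay between 18.44 and 18.68 in every library.

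Pcdh10 stood higher after odor in both fractions. In titled GFP+ libraries its level was 9.86, 9.85, 10.65 and 10.44 in odor pools 1 to 4, against 7.64, 8.67, 9.19 and 7.83 in vehicle pools 1 to 4. In titled GFP- libraries it was 11.67, 11.83, 11.86 and 11.92 after odor, against 8.91, 10.04, 8.17 and 8.67 with vehicle. Every odor library lay above every vehicle library of its fraction, and the 4 odor titled GFP- libraries were the highest of all 16 and the most alike.

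The gap between the lowest odor and the highest vehicle library was 0.66 in titled GFP+ and 1.63 in titled GFP-. The mean difference, odor minus vehicle, was 1.87 ± 0.37 in titled GFP+ and 2.87 ± 0.37 in titled GFP- (limma standard error, n = 4 against 4), and 2.15 ± 0.32 and 2.61 ± 0.32 without vehicle pool 3. Averaged over the 2 fractions, the pools had 10.76, 10.84, 11.25 and 11.18 after odor, against 8.28, 9.36, 8.68 and 8.25 with vehicle. The pool means did not overlap and differed by 2.37 ± 0.23, or 2.38 ± 0.26 without vehicle pool 3, which was the largest positive difference among the 19505 genes in either set. Ordered by mean level, Pcdh10 ran from odor titled GFP- (11.82 ± 0.11, SD, n = 4) over odor titled GFP+ (10.20 ± 0.41) and vehicle titled GFP- (8.95 ± 0.79) to vehicle titled GFP+ (8.33 ± 0.73). Only the first step was free of overlap, since vehicle pool 2 of titled GFP-, at 10.04, lay within the odor titled GFP+ range, and the vehicle fractions overlapped each other. How many of all genes had such a step between the odor fractions was not counted.

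Camk2n1 was also higher after odor in both fractions. In titled GFP+ libraries its level was 8.83, 8.71, 9.29 and 9.12 after odor, against 7.86, 7.97, 7.09 and 8.12 with vehicle. In titled GFP- libraries it was 9.44, 9.17, 9.46 and 9.59 after odor, against 7.62, 7.44, 7.85 and 7.32 with vehicle. All 8 odor libraries lay above all 8 vehicle libraries, whichever fraction they came from. Camk2n1 was chosen on this contrast, and the 16 libraries came from 8 pools. The share of all genes separated in this way was not counted.

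The gaps were 0.59 in titled GFP+ and 1.32 in titled GFP-. The mean difference was 1.23 ± 0.21 in titled GFP+ and 1.86 ± 0.21 in titled GFP-, and 1.00 ± 0.17 and 1.95 ± 0.17 without vehicle pool 3. Pool means were 9.13, 8.94, 9.38 and 9.36 after odor, against 7.74, 7.70, 7.47 and 7.72 with vehicle. They differed by 1.54 ± 0.13, second to Pcdh10 among all genes, and by 1.48 ± 0.14 without vehicle pool 3, where Camk2n1 was the fourth. By mean level the order was odor titled GFP- (9.42 ± 0.18), odor titled GFP+ (8.99 ± 0.27), vehicle titled GFP+ (7.76 ± 0.46) and vehicle titled GFP- (7.56 ± 0.23). The 2 odor fractions overlapped each other, as did the 2 vehicle fractions. The step between odor and vehicle was the only one free of overlap, and the share of all genes with such a step was not counted.

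Pik3ip1 was lower after odor than in all vehicle pools but pool 3. In titled GFP+ libraries its level was 11.02, 10.97, 10.78 and 10.82 after odor, against 11.83, 11.51, 10.53 and 11.62 with vehicle. In titled GFP- libraries it was 10.72, 10.63, 10.51 and 10.65 after odor, against 11.66, 11.56, 10.53 and 11.59 with vehicle. The 8 odor libraries lay below 6 of the 8 vehicle libraries, and the other 2 were those of vehicle pool 3, which had nearly the same level in both fractions.

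With all 16 libraries the groups therefore overlapped, and the mean difference was -0.47 ± 0.27 in titled GFP+ and -0.71 ± 0.27 in titled GFP-. Without vehicle pool 3 they did not overlap, with gaps of 0.48 and 0.84, and the differences were -0.75 ± 0.13 and -0.97 ± 0.13. Pool means were 10.87, 10.80, 10.64 and 10.74 after odor, against 11.75, 11.53, 10.53 and 11.60 with vehicle. Vehicle pool 3 lay below every odor pool, and the other 3 vehicle pools above every odor pool. The pool means differed by -0.59 ± 0.23 with vehicle pool 3 and by -0.86 ± 0.12 without it. The group means were 10.90 ± 0.12 in odor titled GFP+, 10.63 ± 0.09 in odor titled GFP-, 11.37 ± 0.58 in vehicle titled GFP+ and 11.33 ± 0.54 in vehicle titled GFP-. The odor fractions did not overlap each other, while the vehicle fractions did. The share of all genes whose fractions were free of overlap was not counted.

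**Figure D1:**
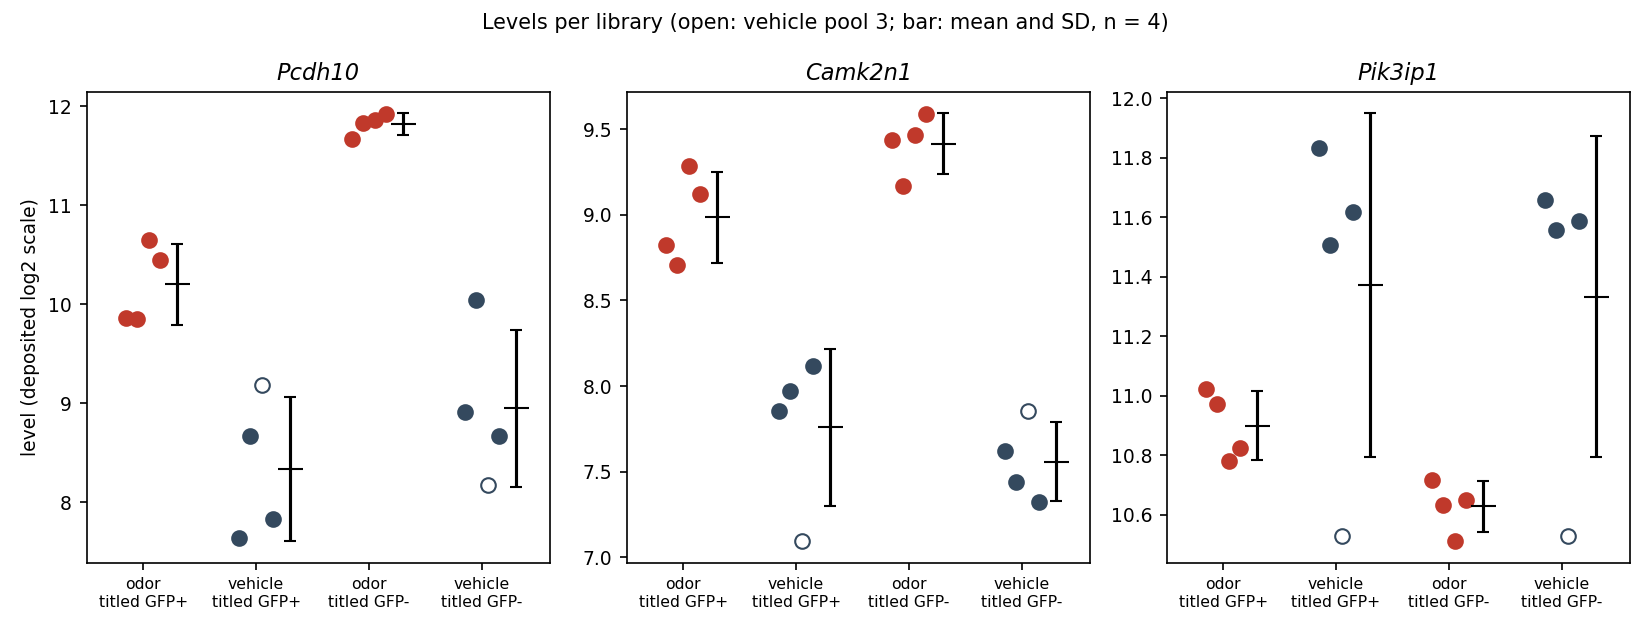
Level of Pcdh10, Camk2n1 and Pik3ip1 (deposited log2 scale) in each of the 16 libraries, in the groups odor and vehicle for titled GFP+ and titled GFP-; points are libraries, bars the mean and SD of 4, and open points vehicle pool 3. Odor libraries lie above vehicle libraries for Pcdh10 and Camk2n1 in both fractions, and for Pik3ip1 the 2 open points lie with the odor libraries while the other vehicle points lie above them.

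Over all genes, few differences between odor and vehicle were called. At an adjusted p of 0.05 (limma, Benjamini-Hochberg) the calls in pool means numbered 2 of 19505 genes (0.0103%) with or without vehicle pool 3. In titled GFP- they numbered 2 (0.0103%) with all libraries and 5 (0.0256%) without vehicle pool 3, and in titled GFP+ 0 (0%; 908 had an unadjusted p under 0.05) and 7 (0.0359%). Members among these calls were Pcdh10 and Camk2n1 in pool means and in titled GFP-, with or without vehicle pool 3. Without that pool Pcdh10 was also among them in titled GFP+, and Pik3ip1 in titled GFP- only. The members were chosen on this contrast, so the counts are the background of the choice and no test of the members. Outside the members, the calls in titled GFP- without vehicle pool 3 were the odorant receptors Olfr221 (2.92 ± 0.39) and Olfr937 (1.20 ± 0.18). Those in titled GFP+ without that pool were Lrrc3b (1.41 ± 0.22), Fam161b (1.19 ± 0.17), Ifit1bl2 (1.07 ± 0.15), Fhad1 (1.06 ± 0.16), Lrrc1 (0.82 ± 0.13) and Wee1 (-1.10 ± 0.17). These calls are named after their values were seen. Groups free of overlap in pool means were more common, at 2.26% of genes for odor above vehicle and 2.11% for odor below it with all libraries, and 5.14% and 4.5% without vehicle pool 3. In titled GFP+ the shares for odor above and below vehicle were 1.4% and 1.47%, and in titled GFP- 2.28% and 1.89%; without vehicle pool 3 they were 4.27% and 3.45%, and 4.27% and 3.83%. The median gene differed by -0.02 in pool means. These are bulk libraries, in which fewer cells of a type and less RNA per cell cannot be told apart.

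**Figure D2:**
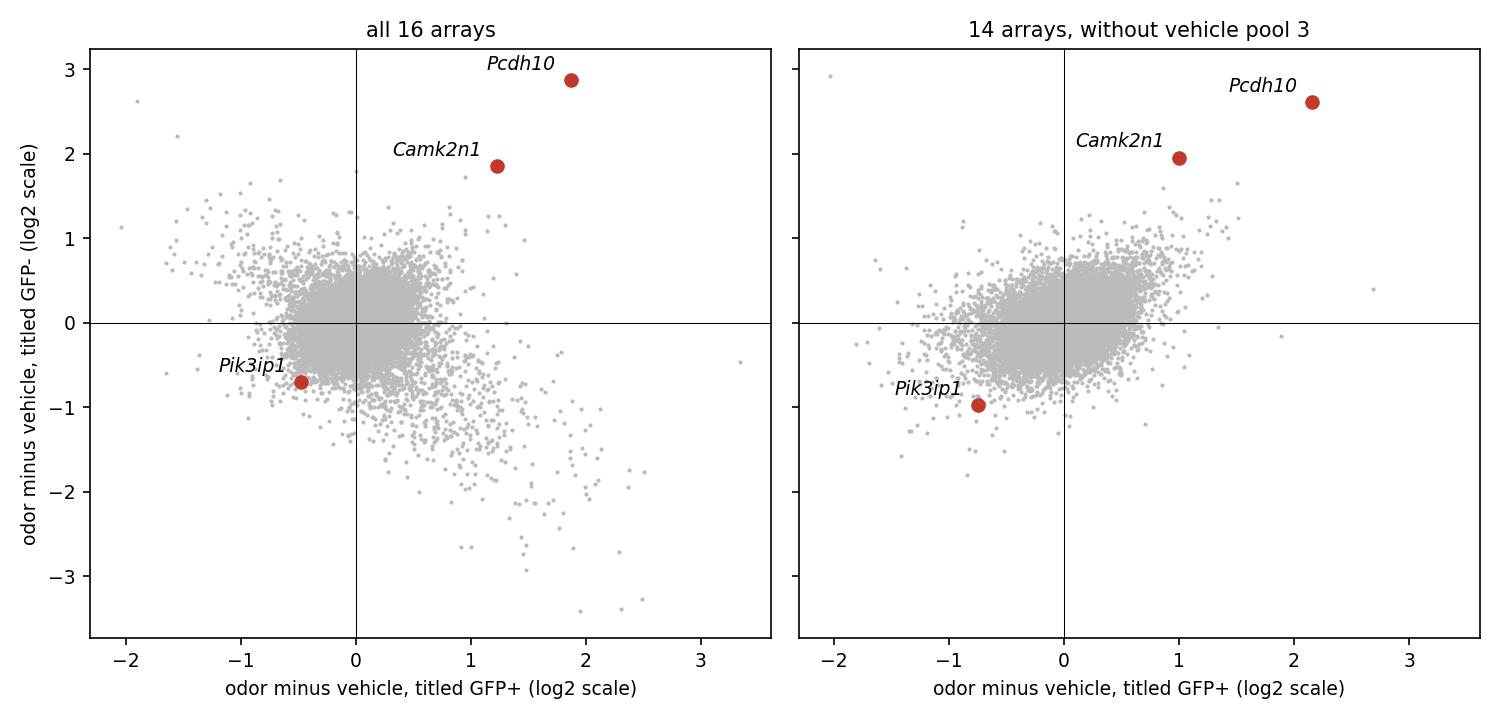
Difference between odor and vehicle (log2 scale) in titled GFP+ (horizontal axis) and in titled GFP- (vertical axis) for all 19505 genes (grey) and the members (red), with all 16 libraries on the left and without vehicle pool 3 on the right. Pcdh10, at 1.87 and 2.87, and Camk2n1, at 1.23 and 1.86, lie in the upper right of the left panel; Pik3ip1 lies at -0.47 and -0.71 there and at -0.75 and -0.97 in the right panel.

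Pool means of S100a5, the reporter's own gene, differed by 0.18 ± 0.12 between odor and vehicle, with overlap and an adjusted p of 0.805 (limma, Benjamini-Hochberg). The mean levels of 13 lists of cell type markers overlapped between odor and vehicle pools in all 13 cases, with or without vehicle pool 3. The 6 neutrophil markers averaged 8.40 to 10.8 in odor pools and 8.54 to 11.5 in vehicle pools, the 6 sustentacular markers 8.22 to 9.47 and 8.64 to 9.25, and the 8 mature neuron markers 17.38 to 17.50 and 17.41 to 17.57. The 6 immature neuron markers came closest to a separation, at 11.50 to 11.70 in odor pools and 11.70 to 11.92 in vehicle pools, and their part in the members' values was not tested.

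The titled fractions were not part of the rule that chose the members, so they were tested. Earlier results of these data were known when these tests were chosen. Within a pool, Pcdh10 was lower in titled GFP+ than in titled GFP- after odor: the difference, titled GFP+ minus titled GFP-, was -1.81, -1.98, -1.21 and -1.48 in odor pools 1 to 4, with a mean of -1.62 ± 0.34 (SD, n = 4). In vehicle pools 1 to 4 it was -1.27, -1.37, 1.02 and -0.85. In 7 of the 8 pools the lower level was in titled GFP+, and vehicle pool 3 was the exception.

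Averaged over both treatments, the Pcdh10 difference was -1.12 ± 0.26 on the log2 scale, with an adjusted p of 0.0161 (limma, Benjamini-Hochberg over 19505 genes) and an exact two-sided sign-flip permutation p of 0.0234 over 8 pools, where 0.00781 is the smallest possible. Without vehicle pool 3 the difference was -1.39 ± 0.22, the adjusted p 0.000234 and the exact permutation p 0.0156, the smallest that 7 pools allow. That pool was left out for running opposite between the fractions, and it was the only pool with the Pcdh10 difference reversed. The p-values without it therefore lean on that choice and add no separate support. With the pool as a block the adjusted p was 0.101 for all libraries and 2.53e-05 without vehicle pool 3, and without the block it no longer passed when odor pool 1 or 2 or vehicle pool 1, 2 or 4 was left out (0.0610 to 0.0760). Of all genes 10.8% were called in this comparison, 3.9% lower and 6.91% higher in titled GFP+; without vehicle pool 3 it was 20%, of which 8.51% lower and 11.5% higher, and with the pool as a block 0.00513% of all genes with all libraries and 21.1% without vehicle pool 3. The S100a5 difference was -0.92 ± 0.25 (adjusted p 0.0294, and 0.132 with the pool as a block).

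Camk2n1 and Pik3ip1 gave no call between the fractions on the deposited values. With arrays centred on their medians, which moved the median gene between the fractions to -0.35, against -0.08 on the deposited values, Camk2n1 was called (-0.38, adjusted p 0.0297) and Pik3ip1 turned to -0.11 without a call. For Camk2n1 the within-pool differences were -0.61, -0.46, -0.18 and -0.47 in odor pools and 0.23, 0.53, -0.76 and 0.80 in vehicle pools, so that the odor pools were all lower in titled GFP+ and the vehicle pools other than pool 3 all higher. The mean over both treatments was -0.11 ± 0.15, with a 95% interval from -0.43 to 0.20, an adjusted p of 0.671 and an exact permutation p of 0.594; it was 0.05 ± 0.12 without vehicle pool 3 (adjusted p 0.823). The opposite signs in odor and vehicle pools are values only, because the difference of differences was not tested.

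For Pik3ip1 the within-pool differences were 0.31, 0.34, 0.27 and 0.17 in odor pools and 0.18, -0.05, 0.00126 and 0.03 in vehicle pools. All but vehicle pool 2 were positive, and vehicle pool 3, at 0.00126, was next to zero. The mean over both treatments was 0.16 ± 0.19, with a 95% interval from -0.25 to 0.56 and an adjusted p of 0.650. The exact permutation p was 0.0391, and without vehicle pool 3 the mean was 0.16 ± 0.10, the adjusted p 0.258 and the exact permutation p 0.0469. The 3 permutation tests are not adjusted for their number.

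**Figure D3:**
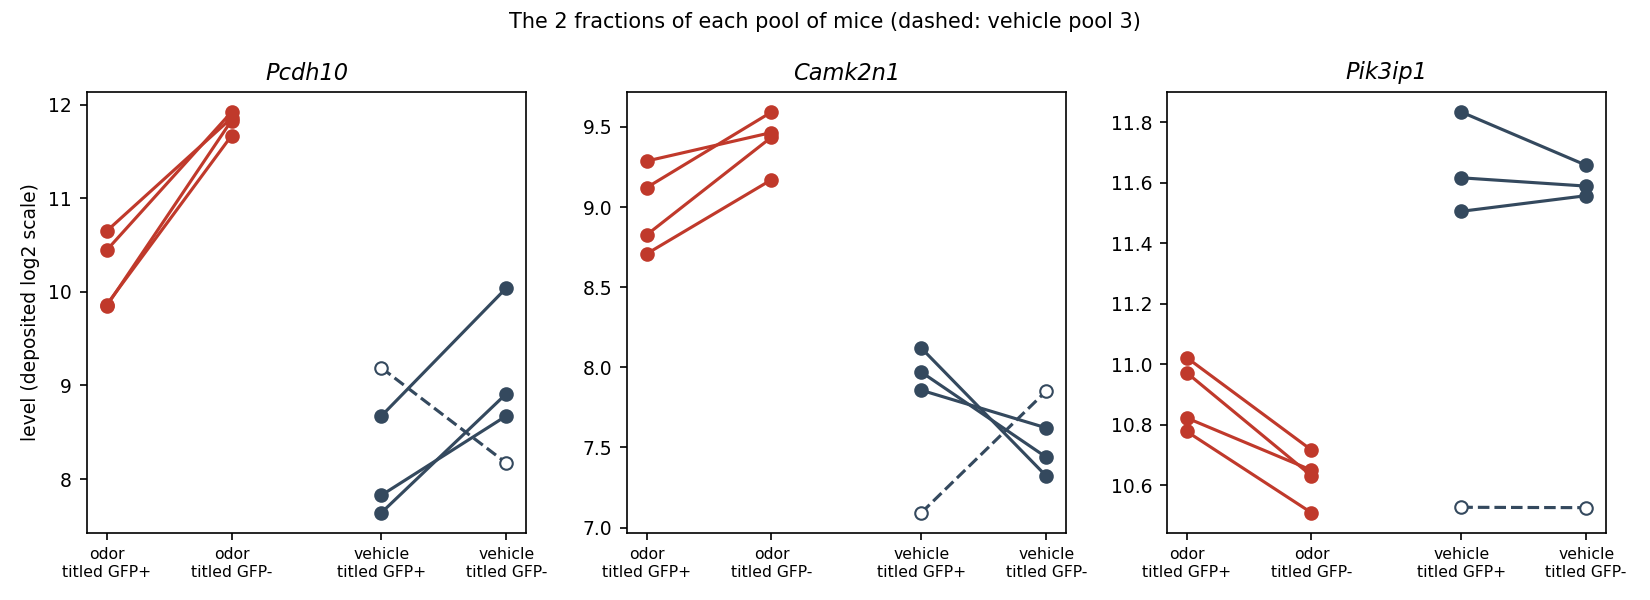
Level (log2 scale) of the 3 genes in the titled GFP+ and titled GFP- libraries of each pool, joined by a line per pool, with vehicle pool 3 dashed. For Pcdh10 all lines but the dashed line rise toward titled GFP-, by 0.85 to 1.98, while for Camk2n1 the odor lines run up and the solid vehicle lines run down toward titled GFP-.

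Markers of other cells differed between the same titled fractions. The 6 neutrophil markers averaged 12.0 to 15.2 in odor titled GFP+ libraries and 4.49 to 6.50 in odor titled GFP- libraries, the 6 immature neuron markers 12.6 to 12.9 and 10.4 to 10.5, and the 4 microvillar markers 8.01 to 9.35 and 5.26 to 5.79. Vehicle pools other than pool 3 had the same direction, with neutrophil markers at 14.8 to 15.4 in titled GFP+ and 5.73 to 7.67 in titled GFP-. Horizontal basal and endothelial markers averaged 3.87 to 4.58 in every library, and a value of 0 does not occur on this scale. Their part in the fraction difference of Pcdh10 was not tested.

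The relatives of each member were looked at in lists that leave the member itself out. Among 9 other delta protocadherins none passed between odor and vehicle in pool means (limma, none with an unadjusted p under 0.05), and the differences ran from -0.19 for Pcdh11x to 0.23 for Pcdh1, with a median of 0.00. Pcdh1, the highest, stood at 0.23 ± 0.19, against 2.37 for Pcdh10, which unlike the list was chosen on this contrast. Between the fractions 3 of the 9 were lower in titled GFP+: Pcdh7 (-0.97, adjusted p 0.0132), Pcdh8 (-0.89, 0.0142) and Pcdh18 (-0.40, 0.0157), and none was higher, against 3.9% of all genes lower and 6.91% higher. Without vehicle pool 3 the counts were 5 lower and 1 higher, against 8.51% of all genes lower and 11.5% higher. With the pool as a block and all libraries the count was 0, where 0.00513% of all genes were called.

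Of 21 measured genes of CaMKII and calmodulin signalling, none passed between odor and vehicle (1 had an unadjusted p under 0.05), and the differences ran from -0.24 to 0.39 with a median of 0.02. Camk2a, the alpha subunit of the kinase that Camk2n1 inhibits, had the highest difference, 0.39 ± 0.15 (adjusted p 0.635). Camk2n2, the related inhibitor, stood at 0.02 ± 0.17. Between the fractions 3 were higher in titled GFP+, Rcan2 (3.00), Ppp3ca (0.59) and Ppp3r1 (0.44), of which the last 2 encode calcineurin subunits and Rcan2 is a calcineurin regulator, and 2 were lower, Pcp4l1 (-1.36) and Camk4 (-0.43), against 6.91% of all genes higher and 3.9% lower. Without vehicle pool 3 the counts were 5 higher and 2 lower, against 11.5% of all genes higher and 8.51% lower. The count was 0 with all libraries and the pool as a block, where 0.00513% of all genes were called.

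Of 31 measured genes of PI3 kinase signalling, none passed between odor and vehicle (1 had an unadjusted p under 0.05), and the differences ran from -0.44 for Tsc1 to 0.37 for Irs1 with a median of -0.03. Tsc1, a subunit of the complex that restrains mTOR, had a difference of -0.44 ± 0.13 (adjusted p 0.540). The catalytic subunits Pik3ca, Pik3cb, Pik3cd and Pik3cg, the kind of protein that Pik3ip1 binds, stood at -0.03 ± 0.11, -0.27 ± 0.17, -0.28 ± 0.19 and 0.23 ± 0.27. Between the fractions Pik3cg (3.96), Inpp5d (2.32) and Pik3r5 (1.54), known mainly from blood cells, were higher in titled GFP+ and none was lower, 3 of 31 in a comparison that called 10.8% of all genes. The neutrophil markers above moved with the same fraction, and their part in these 3 was not tested. Without vehicle pool 3 the counts were 8 higher and 2 lower, against 11.5% of all genes higher and 8.51% lower. The count was 0 with all libraries and the pool as a block, where 0.00513% of all genes were called.

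**Figure D4:**
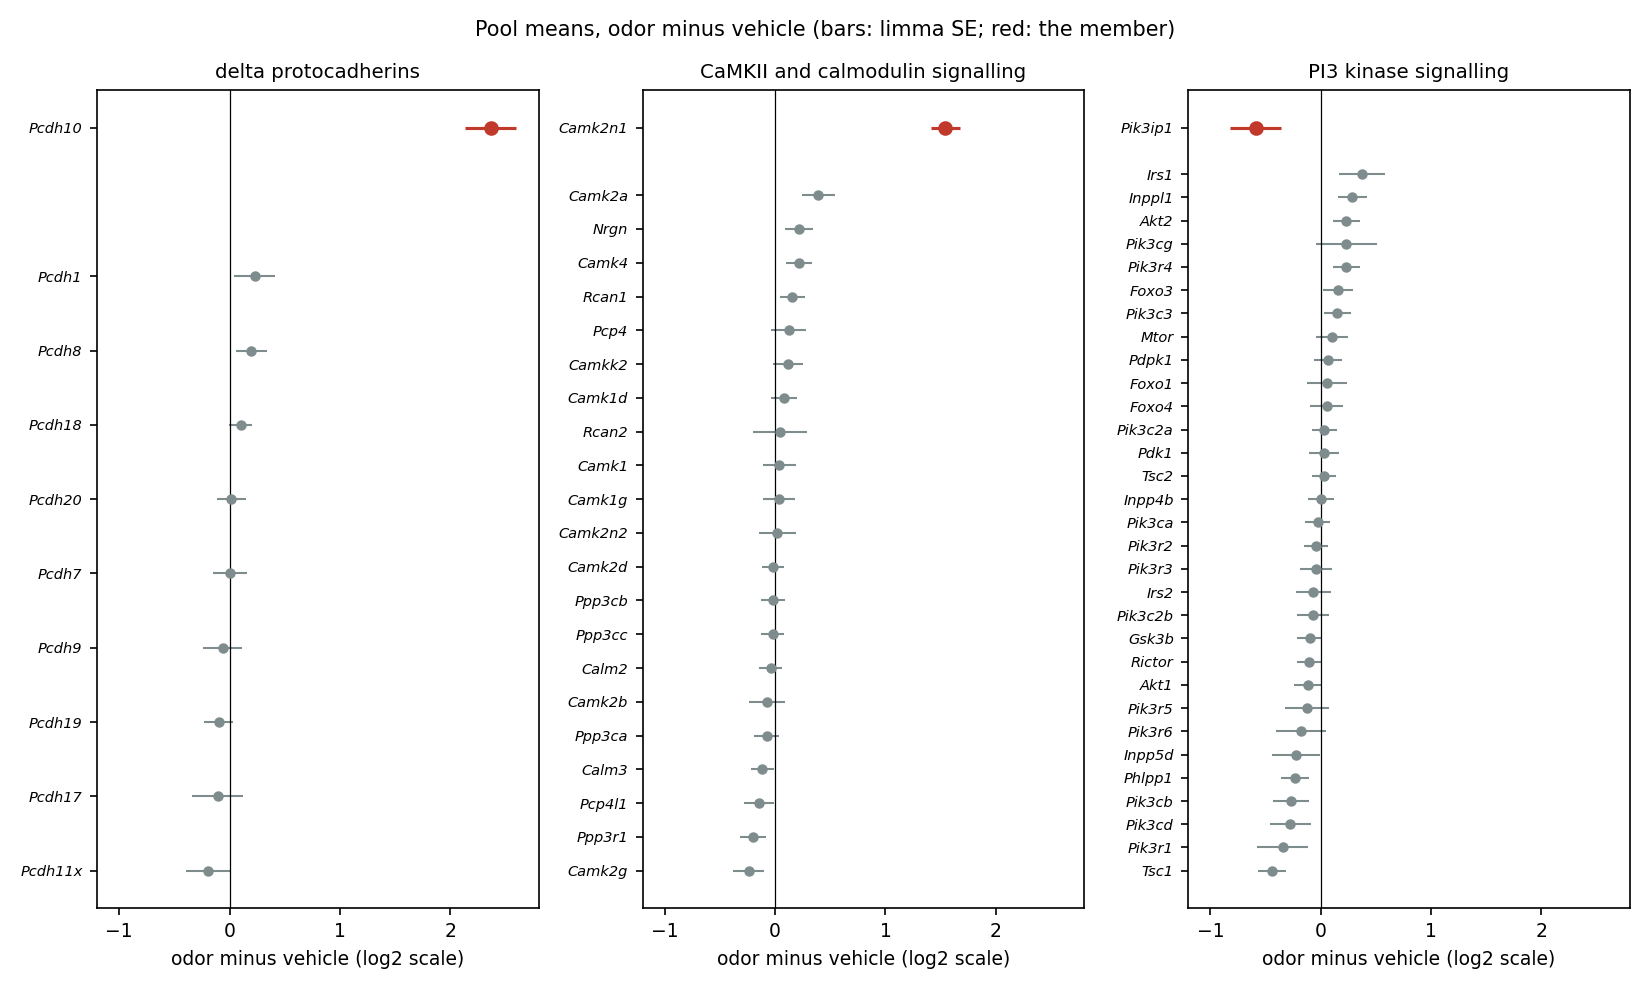
Difference between odor and vehicle in pool means (log2 scale) with the limma standard error for the delta protocadherins, the CaMKII and calmodulin genes and the PI3 kinase genes, each panel with its member on top in red. Pcdh10 (2.37), Camk2n1 (1.54) and Pik3ip1 (-0.59) stand outside the range of their lists (-0.19 to 0.23, -0.24 to 0.39 and -0.44 to 0.37). The members were chosen on this difference and the listed genes were not, so their place outside the lists is no test. Pik3ip1 (-0.59 ± 0.23) lies close to Tsc1 (-0.44 ± 0.13), the lowest of its list.

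Genes named elsewhere as raised or lowered by olfactory neuron activity were set beside the members. Of the 4 measured activity-raised genes, Lrrc3b (1.05 ± 0.22, adjusted p 0.390) and Kirrel2, an adhesion molecule of olfactory axons (1.02 ± 0.26, adjusted p 0.492), had the largest differences in pool means. S100a5 (0.18 ± 0.12) and Pcp4l1 (-0.15 ± 0.13) had small ones, and none of the 4 passed limma's test (2 had an unadjusted p under 0.05). Without vehicle pool 3, Lrrc3b stood at 1.27 (adjusted p 0.0594) and Kirrel2 at 1.22 (0.171) in pool means. In titled GFP+ without vehicle pool 3, Lrrc3b passed, at 1.41 ± 0.22 (adjusted p 0.0375), and Kirrel2 stood at 1.43 ± 0.28 (0.111). With the replicate number as a block, 2 of the 4 genes passed in pool means of all libraries. The 2 activity-lowered genes, Kirrel3 (-0.11 ± 0.11) and Epha5 (0.17 ± 0.15), were near zero. Between the fractions, 3 of the 4 activity-raised and 1 of the 2 activity-lowered genes were lower in titled GFP+ and 0 higher. Of all genes 3.9% were lower and 6.91% higher. Without vehicle pool 3, 4 of 4 and 1 of 2 were lower and 0 higher, against 8.51% of all genes lower and 11.5% higher. Of 18 immediate early genes, transcription factors and others that respond within minutes to activity, none passed between odor and vehicle (limma, 3 had an unadjusted p under 0.05). The highest, Fosb, stood at 0.72 ± 0.16 (adjusted p 0.492). Between the fractions 11 of the 18 were higher in titled GFP+ and 0 lower, against 6.91% of all genes higher and 3.9% lower. Their median difference was 2.04. Without vehicle pool 3, 13 were higher and 0 lower, against 11.5% and 8.51% of all genes. With the pool as a block and all libraries the count was 0 in each of these lists, where 0.00513% of all genes were called.

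The members' place among the genes with the largest differences can be seen in the pool means of 8552 genes with a mean level of at least 7. Predicted or unnamed loci and odorant, vomeronasal and trace amine receptors were left out of this set. After Pcdh10 and Camk2n1 came Kcng1, a potassium channel subunit (1.34), Zfp423, a transcription factor of the olfactory neuron lineage (1.26), Dzip3, an E3 ubiquitin ligase (1.23), Bpifb9b, a secreted protein (1.22), Banp, a nuclear DNA-binding protein (1.21), and Jag1, a Notch ligand (1.11). Odor and vehicle pools overlapped for Bpifb9b and not for the other genes of this side. On the lower side Per2, a clock repressor, came first (-0.99), then S100a9, a neutrophil protein (-0.87), H1f2 (-0.83), Cdt1, a DNA replication licensing factor (-0.79), Trim15 (-0.79), Prrg4 (-0.76), Tlr2 (-0.75) and Fn1 (-0.75). Of these 8 genes only Per2 and Cdt1 had pools free of overlap. Pik3ip1 was 32nd from that end.

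The 5 genes whose levels were most like those of each member over the 16 libraries were found by Pearson's correlation. The search covered the other 8551 genes of the same set, again without receptors and unnamed loci. They are a description, because libraries share pools and treatments and every correlation includes the difference between odor and vehicle. For Pcdh10 they were Pacsin3 (r = 0.916), a membrane trafficking adaptor, Sema7a (0.900), a membrane-anchored semaphorin of axon guidance, Epha7 (0.893), an ephrin receptor, Hivep2 (0.884), a zinc finger transcription factor, and Gfm1 (0.880), a mitochondrial translation factor. For each of these 5, every odor pool was above every vehicle pool, as was the case for 2.26% of all genes. Genes picked for following Pcdh10 tend to share its difference between odor and vehicle. Their differences (0.29 to 0.79) were smaller than that of Pcdh10.

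For Camk2n1 the 5 were Usp6nl (0.833), a GTPase-activating protein of endocytosis, Banp (0.833), Pds5b (0.815), a cohesin regulator, Rad50 (0.803), a DNA repair protein, and Neto2 (0.797), an auxiliary subunit of kainate receptors. Their differences ran from 0.36 for Neto2 to 1.21 for Banp. For each of these 5 too, every odor pool was above every vehicle pool. For Pik3ip1 the 5 were Slc20a1 (0.885), a phosphate transporter, Wee1 (0.864), a cell cycle kinase, Bcl2l11 (0.862), a pro-apoptotic protein, Per1 (0.853), a clock repressor, and Rnf145 (0.848), a ubiquitin ligase. Their differences ran from -0.71 for Per1 to -0.33 for Rnf145. In all 5, vehicle pool 3 lay below the other 3 vehicle pools, as it did for Pik3ip1 (Wee1 7.36, against 8.13 to 8.28). Genes picked for following Pik3ip1 tend to share its low level in that pool.

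**Figure D5:**
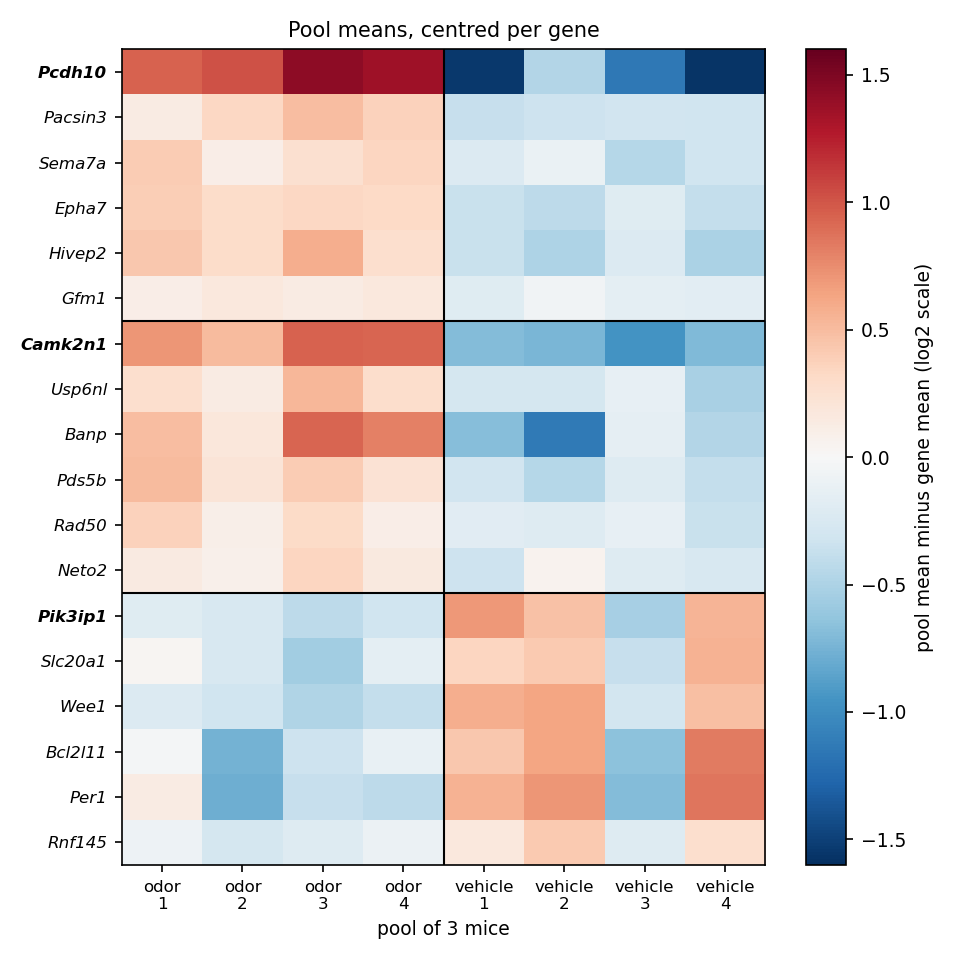
Pool mean minus the gene's mean over all libraries (log2 scale, colour) for the members and their 5 most similar genes, in odor pools 1 to 4 and vehicle pools 1 to 4. Odor pools of the Pcdh10 and Camk2n1 blocks are high and those of the Pik3ip1 block mostly low, and vehicle pool 3 is low for Pik3ip1 and its 5 genes.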

How the data were processed

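Sorted olfactory mucosa cells of mouse were measured on Affymetrix arrays in 16 libraries. The authors deposited 1 table of values on a log2 scale, for which the submitters' processing notes name Affymetrix Expression Console. Its version, the genome build and the method of summarization remain not given in the sources used here. Values ran from 1.69 to 19.4, library medians from 6.13 to 6.45, and arrays have no read depth, so their number limits precision. Among 5222 probe sets named as negative the median was 5.45 and the 95th percentile 9.56. They mark no clean background, and below that percentile lay Camk2n1 in 7 of 8 odor and 8 of 8 vehicle libraries and Pcdh10 in 7 of 8 vehicle libraries.

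Each of 28846 probe sets was named through the platform annotation (19572 with 1 symbol), and the probe set with the highest mean was kept for a gene (19505 genes). Groups follow the titles. The test was limma's (version 3.58.1, R 4.3.3; lmFit, eBayes; two-sided), fitted to 4 group means or to the 8 pool means, with Benjamini-Hochberg adjustment over all genes at 0.05. Errors of differences are limma standard errors. The rule for named genes took the members, S100a5, up to 4 genes per list and comparison, 8 genes per direction and 5 similar genes per member. Camk2n2, Irs1 and the PI3 kinase catalytic subunits (odor), and Ppp3r1 (fractions), are outside it and were chosen after their values were seen. The members, lists and tests were chosen with earlier results of these data known. Replicates are pools of different mice. Both libraries of a pool come from the same mice. The labels do not say that replicate numbers pair odor and vehicle. With group means removed, the 2 fractions of a pool correlated at 0.158, 0.147, 0.253 and 0.127 in odor pools 1 to 4. In vehicle pools 1 to 4 they correlated at -0.420, -0.0645, -0.754 and -0.333. Odor and vehicle pool means, treated likewise, correlated at 0.376, 0.280, 0.300 and -0.0119 for numbers 1 to 4. Whether pools of the same number shared their handling was not tested. The limma step was also run on simulated data with known changes. That run does not show how the step performs on the measured libraries, where both fractions of a pool share their mice.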

Additional observations from a re-analysis of the deposited data

Results flagged for a closer look

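Of 24 groups of 4 libraries or pools examined for the members, 2 held a value far from the rest by Dixon's ratio, above the critical value of 0.829 for 4 values; chance gives about 1 in 20. Camk2n1 in vehicle pool 3 was the lowest of the 4 vehicle pool means, with a ratio of 0.869. Pik3ip1 in the titled GFP- library of vehicle pool 3 was the lowest of its group, with a ratio of 0.911. A further result differed between treatments: without vehicle pool 3, every odor pool had less Camk2n1 in titled GFP+ than in titled GFP- and every vehicle pool had more, and the fraction difference in odor pools minus that in vehicle pools was -0.95. This difference was not tested.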

How the results depend on the processing

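The odor-minus-vehicle values of the 3 members kept their direction in every setting run. Pool means differed by 2.24 to 2.61 for Pcdh10, 1.48 to 1.63 for Camk2n1 and -0.86 to -0.46 for Pik3ip1. Of 402 values compared with the main setting, 320 counted as the same. For members' fraction values this meant the same direction and side of the threshold. For members' odor values it meant a shift smaller than their pooled SD, and for counts of calls an equal or similar number. Fraction results did not all keep their direction and side of the threshold. Pcdh10 stayed at -1.12 with the pool as a block but with an adjusted p of 0.101, and lay between -1.39 and -0.99 with a pool left out. With arrays centred on their medians, which moved the median gene between fractions from -0.08 to -0.35 and left 1279 of 9143 calls higher in titled GFP+ (1347 of 2107 as deposited, 1300 of 2634 under quantile normalization), Camk2n1 was -0.38 (adjusted p 0.0297) and Pik3ip1 -0.11, a reversal. With the pool as a block and without vehicle pool 3, Camk2n1 reversed to 0.045, and it ran from -0.21 to 0.045 with a pool left out. Calls between fractions, 2107 with all libraries, numbered 1076 at a mean level of at least 7, 1 with the pool block, 4106 with the block and without vehicle pool 3, and 0 to 3903 with a pool left out. In the lists, the pool block gave 0 calls in all 6; centring gave 11 for CaMKII signalling, 6 for delta protocadherins and 16 for PI3 kinase signalling; the level filter gave 3 for CaMKII and 0 for PI3 kinase; and the block without vehicle pool 3 gave 6 for delta protocadherins and 10 for PI3 kinase. With a pool left out the fraction calls ran from 0 to 1 for activity-lowered, 0 to 4 for activity-raised, 0 to 7 for CaMKII, 0 to 6 for delta protocadherin, 0 to 13 for immediate early and 0 to 10 for PI3 kinase genes. Odor calls numbered 9 in pool means and 4 in titled GFP- with the replicate number as a block, 2 of them activity-raised in pool means, and with a pool left out 0 to 5 in titled GFP- and 0 to 7 in titled GFP+. The cause of these changes was not tested.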
